A study of Mus musculus with 16 samples.

Results

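Costimulatory and checkpoint molecules of macrophages were described by 8 genes: Cd40, Cd80, Cd86, Cd274, Pdcd1lg2, Icosl, Cd83 and Cd28. They were taken by their symbol in the platform annotation, each through its brightest probe set by the mean over all 16 arrays, and all 8 were measured among 19937 genes. The samples were bone-marrow-derived macrophages of mice on a 129sv background, either wild type or NFAT5 KO, and either unstimulated or given LPS, making 4 groups of 4 arrays. NFAT5 is a transcription factor known for driving the cell's answer to high salt, and LPS (lipopolysaccharide), from the outer membrane of Gram-negative bacteria, is sensed by Toll-like receptor 4. The LPS dose and time and the altered part of the Nfat5 gene are not stated in the labels used here. No label says that replicates came from separate mice, so p-values measure only how much these arrays vary, which may be technical variation. Levels are log2 values after robust multi-array average (RMA) processing, so a difference of 1 is a doubling, and levels of different genes are not compared because each probe set has its own brightness.

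A T cell that sees antigen on a macrophage or dendritic cell needs a further, costimulatory signal to respond fully. CD80 and CD86 on the presenting cell give this signal through CD28 on the T cell, and ICOS ligand (Icosl) gives a related one through ICOS. CD40 on the presenting cell receives CD40 ligand from the T cell and answers through TRAF proteins and NF-kB, while PD-L1 (Cd274) and PD-L2 (Pdcd1lg2) engage PD-1 and dampen the T cell. CD83 is a surface protein of mature dendritic cells that helps to keep MHC class II and CD86 on the surface.

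Nfat5 itself averaged 9.39 without and 10.07 with LPS in wild-type cells, and 9.04 and 9.09 in KO cells. The KO level was lower with LPS (-0.98 ± 0.162, limma adjusted p = 0.00169) and did not pass the test without it (-0.36 ± 0.162, adjusted p = 0.602), and whether the probe set lies in the altered part is unknown. Of 7 macrophage markers measured, the lowest group mean was 8.98 (Mertk in wild-type cells with LPS) and the highest 13.69 (Lyz2, unstimulated wild type). Xist exceeded the Y-linked Kdm5d in all 8 wild-type arrays but in only 2 of the 8 KO arrays, those numbered 4. Genotype therefore largely coincides with sex in the comparisons of KO with wild type. A term for sex rests only on the KO arrays numbered 4 against the other KO arrays. It cannot tell sex from other differences of those arrays. On the second principal component, which held 7.55% of the variance, array 4 of wild type with LPS (-18.5), unstimulated KO (-24.4) and KO with LPS (-31.4) lay apart. Unstimulated wild-type array 4 (-6.42) lay near unstimulated wild-type array 1 (-7.99). Results that rest on the arrays numbered 4 are given with and without them. Because these are bulk samples, fewer cells of a type and less RNA per cell cannot be told apart.

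Most of the 8 transcripts changed with LPS, in both genotypes. In wild-type cells 5 rose (Cd40, Cd274, Icosl, Cd83 and Cd86) and 1 fell (Cd28), and the same 6 were called in KO cells in the same directions. A call is an adjusted p under 0.05 in limma with Benjamini-Hochberg adjustment over all genes. Against this, 30.8% of all genes were called in wild-type cells (14% higher and 16.8% lower) and 24.7% in KO cells (12% and 12.7%). The LPS and unstimulated groups did not overlap for 6 of the 8 in each genotype, compared with 32.3% and 24.8% of all genes (wild type: 16.2% higher and 16.2% lower, KO: 12.4% and 12.4%). The median log2 change of the 8 was 1.38 in wild-type and 1.35 in KO cells, and that of all genes 0.062 and 0.01.

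**Figure D1:**
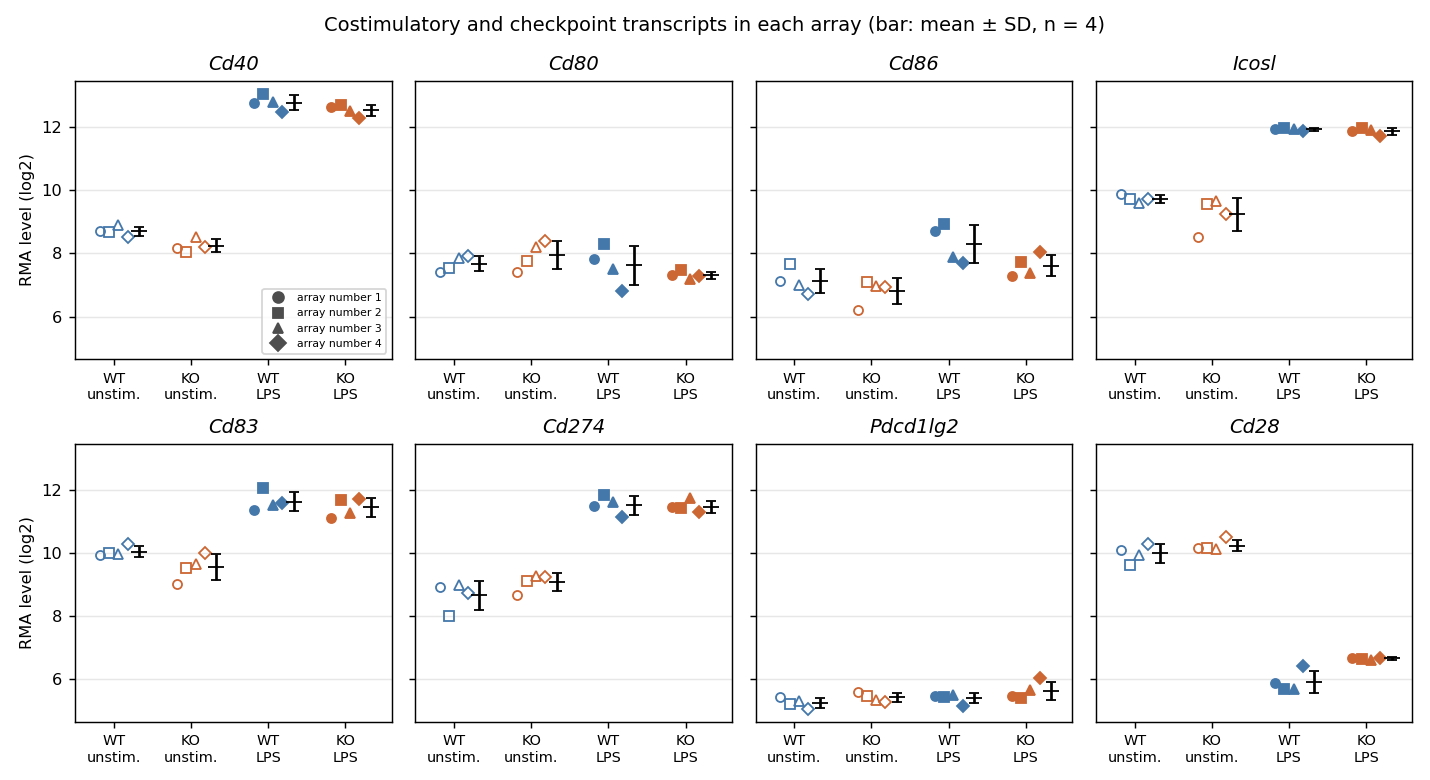
Log2 RMA level of each of the 8 transcripts in each of the 16 arrays. Blue is wild type, orange NFAT5 KO, open symbols unstimulated, filled symbols LPS, the symbol shape gives the array number, and the black bar is the mean ± SD of 4 arrays. Cd40, Icosl, Cd83 and Cd274 lie higher with LPS in every array of both genotypes, Cd28 lies lower, and Cd80 and Pdcd1lg2 overlap between treatments.

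Cd40, the receptor through which T cells activate macrophages, had the largest rise of the 8. Without LPS the wild-type arrays numbered 1 to 4 read 8.71, 8.68, 8.89 and 8.53, and with LPS 12.76, 13.05, 12.79 and 12.48. The KO arrays read 8.18, 8.06, 8.53 and 8.19 without LPS and 12.64, 12.68, 12.49 and 12.29 with it. Every array with LPS was thus far above every array without, whatever the genotype. The rise was 4.07 ± 0.13 (SE, n = 4 against 4) in wild-type cells, 16.8-fold (limma adjusted p = 1.63e-13), and 4.28 ± 0.13 in KO cells, 19.5-fold (adjusted p = 8.82e-14). By absolute size this was the 26th largest change among 19937 genes in wild-type and the 15th in KO cells.

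Cd80 and Cd86 encode the ligands of CD28, and only the change of Cd86 with LPS was called. Cd86 read 7.14, 7.65, 7.0 and 6.72 in unstimulated and 8.72, 8.92, 7.88 and 7.70 in LPS-treated wild-type arrays. In KO arrays it read 6.20, 7.11, 6.97 and 6.93 without and 7.30, 7.74, 7.37 and 8.03 with LPS. The treated and untreated arrays did not overlap in either genotype, though the wild-type arrays with LPS fell into a higher pair (numbers 1 and 2) and a lower pair (3 and 4). Cd86 rose by 1.18 ± 0.268 in wild-type cells (adjusted p = 0.00201) and by 0.81 ± 0.268 in KO cells (adjusted p = 0.0331). The call in KO cells was lost without KO unstimulated array 1 (0.61, adjusted p = 0.127), KO LPS array 2 (0.77, 0.079) or KO LPS array 4 (0.67, 0.109), and on arrays numbered 1 to 3 (0.71, 0.0871).

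For Cd80 the changes were -0.07 ± 0.245 in wild-type cells (adjusted p = 0.872, 95% confidence interval -0.58 to 0.45; 0.28 on arrays numbered 1 to 3) and -0.63 ± 0.245 in KO cells (adjusted p = 0.0714, -1.15 to -0.12). Wild-type arrays read 7.40, 7.55, 7.85 and 7.92 without LPS and 7.82, 8.31, 7.51 and 6.82 with it, so that numbers 1 and 2 were higher with LPS and numbers 3 and 4 lower. KO arrays read 7.41, 7.75, 8.20 and 8.40 without LPS and 7.31, 7.46, 7.18 and 7.28 with it, lower with LPS in 4 of 4 same-numbered pairs. By array number these KO pairs differed by -0.1, -0.3, -1.02 and -1.12. The KO value stayed uncalled in 21 of 28 alternatives, with adjusted p up to 0.22 and a change as small as -0.47. It was called when only the 8 KO arrays were fitted (adjusted p = 0.027) and without KO unstimulated array 1 (-0.81, 0.0229). The call also appeared without wild-type LPS array 2 or 4 (0.0346 and 0.0232). Among genes with a group mean of at least 7 the adjusted p was 0.0472, and with the mean of both Cd80 probe sets 0.0498 (-0.53). The second Cd80 probe set, which was dimmer, read 7.25, 7.22, 7.87 and 7.36 in unstimulated and 7.06, 7.10, 7.09 and 6.74 in LPS-treated KO arrays.

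Icosl and Cd83 both rose. Icosl, the ligand of ICOS, read 9.87, 9.71, 9.59 and 9.71 in unstimulated wild-type arrays and 11.93, 11.95, 11.92 and 11.87 with LPS, a rise of 2.20 ± 0.172 or 4.59-fold (adjusted p = 9.96e-09). KO arrays read 8.51, 9.57, 9.65 and 9.24 without LPS and 11.88, 11.97, 11.90 and 11.70 with it, a rise of 2.62 ± 0.172 or 6.14-fold (adjusted p = 1.58e-09). The SD among unstimulated KO arrays was 0.52, with number 1 the lowest, whereas with LPS it was 0.0356 in wild-type and 0.113 in KO arrays. Cd83 rose from 9.92, 10, 9.95 and 10.28 to 11.37, 12.04, 11.50 and 11.57 in wild-type arrays, by 1.58 ± 0.19 (3.0-fold, adjusted p = 2.43e-06). In KO arrays it rose from 9.0, 9.53, 9.64 and 10.01 to 11.11, 11.68, 11.27 and 11.71, by 1.90 ± 0.19 (3.73-fold, adjusted p = 3.34e-07).

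The PD-1 ligands lie side by side on chromosome 19, as the neighbouring genes Cd274 and Pdcd1lg2, and had unlike responses, with confidence intervals that did not overlap in either genotype. Cd274 read 8.92, 7.99, 8.97 and 8.74 in unstimulated wild-type arrays and 11.48, 11.83, 11.62 and 11.12 with LPS. In KO arrays it read 8.67, 9.11, 9.28 and 9.24 without and 11.44, 11.41, 11.73 and 11.29 with LPS. No treated array came near an untreated one: the rise was 2.86 ± 0.197 in wild-type cells (7.24-fold, adjusted p = 1.98e-09) and 2.39 ± 0.197 in KO cells (5.23-fold, adjusted p = 2.81e-08). Pdcd1lg2 lay between 5.06 and 6.03 in all 16 arrays, under the lowest array median over all probe sets of 6.76. Its change with LPS was 0.14 ± 0.13 in wild-type cells (adjusted p = 0.462, 95% confidence interval -0.13 to 0.41) and 0.22 ± 0.13 in KO cells (adjusted p = 0.294, -0.06 to 0.49). No detection calls were used here, so whether this transcript was above background was not tested. The highest value, 6.03, was that of KO LPS array 4.

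Of the 8 genes, 4 had a promoter in the RefSeq table of build GRCm38.p6, from 250 bases before to 50 after the start site: Cd80, Cd274, Pdcd1lg2 and Icosl. Those of the PD-1 ligands are shown because the genes are neighbours with unlike responses, and that of Icosl because it rose as well. Each is written 5′ to 3′ on the plus strand, the strand of all 3 genes, at chr19:29367188-29367487, chr19:29410669-29410968 and chr10:78069118-78069417, with matches to the searched motifs in capitals.
Cd274: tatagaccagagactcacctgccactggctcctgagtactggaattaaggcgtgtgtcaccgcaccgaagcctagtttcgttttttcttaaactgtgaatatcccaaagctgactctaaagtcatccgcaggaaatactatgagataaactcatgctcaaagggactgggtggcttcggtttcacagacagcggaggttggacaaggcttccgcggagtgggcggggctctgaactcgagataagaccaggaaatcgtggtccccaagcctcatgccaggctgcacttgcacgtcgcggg
Pdcd1lg2: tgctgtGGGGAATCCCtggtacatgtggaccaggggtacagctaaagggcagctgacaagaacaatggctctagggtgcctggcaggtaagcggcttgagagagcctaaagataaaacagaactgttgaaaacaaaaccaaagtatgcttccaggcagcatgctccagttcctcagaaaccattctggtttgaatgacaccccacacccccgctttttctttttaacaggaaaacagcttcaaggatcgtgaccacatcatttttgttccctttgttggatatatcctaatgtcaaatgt
Icosl: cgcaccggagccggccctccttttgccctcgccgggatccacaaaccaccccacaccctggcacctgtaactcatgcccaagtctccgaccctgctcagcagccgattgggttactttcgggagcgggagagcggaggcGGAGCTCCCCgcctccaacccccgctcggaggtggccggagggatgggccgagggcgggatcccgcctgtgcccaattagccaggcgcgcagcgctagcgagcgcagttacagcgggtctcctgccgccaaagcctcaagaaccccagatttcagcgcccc
On both strands, 5 motifs were searched: the kappaB consensus, the NFAT5 core TGGAAA, the interferon response core, the STAT site TTCNNNGAA and the AP-1 site TGANTCA. Of all 32851 promoters in the table they were found in 8.46%, 21.4%, 3.44%, 8.3% and 7.81%. The Pdcd1lg2 and Icosl windows each held 1 kappaB match, whose first base lay 244 and 111 bases before the start site. The Cd274 window held no match to any of the 5 motifs, and the Cd80 window held 1 AP-1 match, TGATTCA, 42 bases before the start. A match describes letters only, and no binding was measured.

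Cd28, best known as the receptor for CD80 and CD86 on T cells, was the member that fell. Unstimulated wild-type arrays read 10.10, 9.61, 9.93 and 10.28, and LPS-treated ones 5.90, 5.70, 5.69 and 6.41. KO arrays read 10.15, 10.14, 10.12 and 10.50 without LPS and 6.67, 6.65, 6.61 and 6.69 with it. In both genotypes every treated array was more than 3 log2 units below every untreated one. In wild-type cells the change was -4.05 ± 0.154, to 6.02% of the unstimulated level (adjusted p = 1.17e-12), and in KO cells -3.57 ± 0.154, to 8.4% (adjusted p = 7.02e-12). By absolute size these were the 27th and 42nd largest changes among all genes. Every LPS-treated array read under the lowest array median over all probe sets, 6.76, and whether Cd28 was then above background was not tested.

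None of the T-cell transcripts measured fell by as much as Cd28. Of 9 T-cell markers measured, 2 fell and 1 rose with LPS in wild-type cells: Il7r, the interleukin-7 receptor chain, by -1.91 ± 0.219 (adjusted p = 1.4e-06), Cd4 by -0.61 (adjusted p = 0.0159) and Cd8a by 0.27 (adjusted p = 0.0349). In KO cells Il7r alone was called, at -2.55 ± 0.219 (adjusted p = 4.8e-08). Cd3d, Cd3e and Cd3g, which encode chains of the T-cell receptor complex, ranged over all 16 arrays from 5.26 to 5.72, from 7.01 to 7.68 and from 4.82 to 5.40. The mean level of the 9 markers ranged over arrays from 6.68 to 6.87 and 6.47 to 6.73 in wild-type cells without and with LPS, and from 6.91 to 7.07 and 6.56 to 6.74 in KO cells. Ctla4 and Icos, the next genes after Cd28 on chromosome 1 and members of its family, ranged from 5.23 to 5.95 and from 6.02 to 6.49 over all arrays. Their changes with LPS were 0.16 and -0.15 in wild-type cells and 0.23 and -0.08 in KO cells, and none was called.

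**Figure D2:**
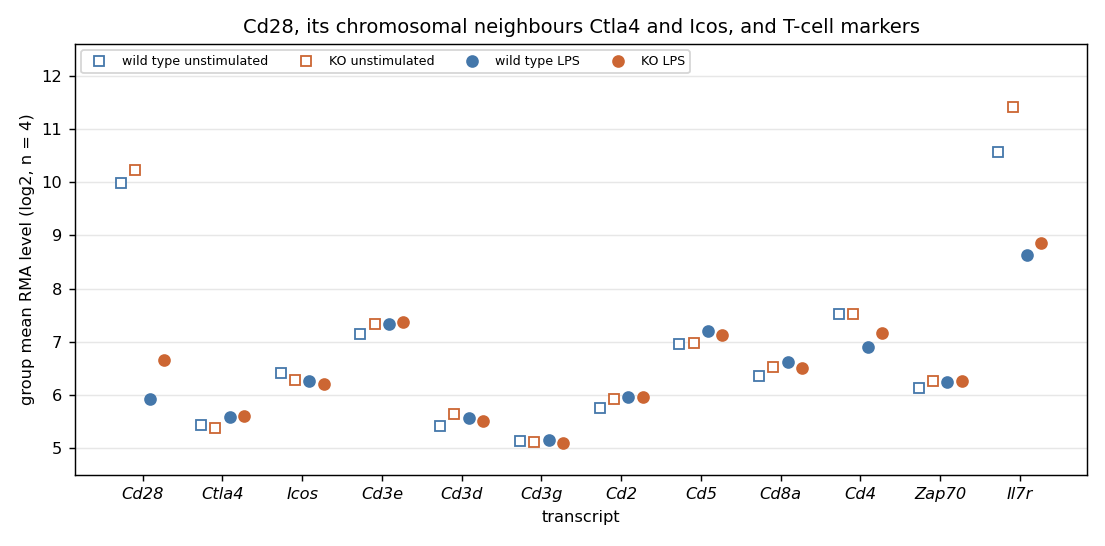
Group mean log2 RMA level (n = 4 arrays) of Cd28, of its neighbours on chromosome 1, Ctla4 and Icos, and of 9 T-cell markers. Squares are unstimulated, circles LPS, blue wild type and orange KO. Within each transcript the treatment groups can be compared: Cd28 goes from 9.98 to 5.92 in wild type and from 10.23 to 6.66 in KO cells, Il7r from 10.56 to 8.64 and from 11.41 to 8.86, and the others move by less than 1 log2 unit.

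Set in order, the changes of the 8 transcripts in wild-type cells ran from Cd40 (95% confidence interval 3.79 to 4.34) through Cd274 (2.44 to 3.27), Icosl (1.84 to 2.56), Cd83 (1.18 to 1.98), Cd86 (0.61 to 1.74), Pdcd1lg2 and Cd80 to Cd28 (-4.38 to -3.73). The intervals of Cd274 and Icosl, of Icosl and Cd83, of Cd83 and Cd86, and of Pdcd1lg2 and Cd80 overlapped. The differences within these pairs were not tested, so their order is a description only. Those of Cd40, and of Cd28, overlapped no other. In KO cells the order was Cd40, Icosl, Cd274, Cd83, Cd86, Pdcd1lg2, Cd80 and Cd28. There the intervals of Icosl (2.26 to 2.98), Cd274 (1.97 to 2.80) and Cd83 (1.5 to 2.30) overlapped from one to the next, and so did those of Cd86 (0.24 to 1.37) and Pdcd1lg2.

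**Figure D3:**
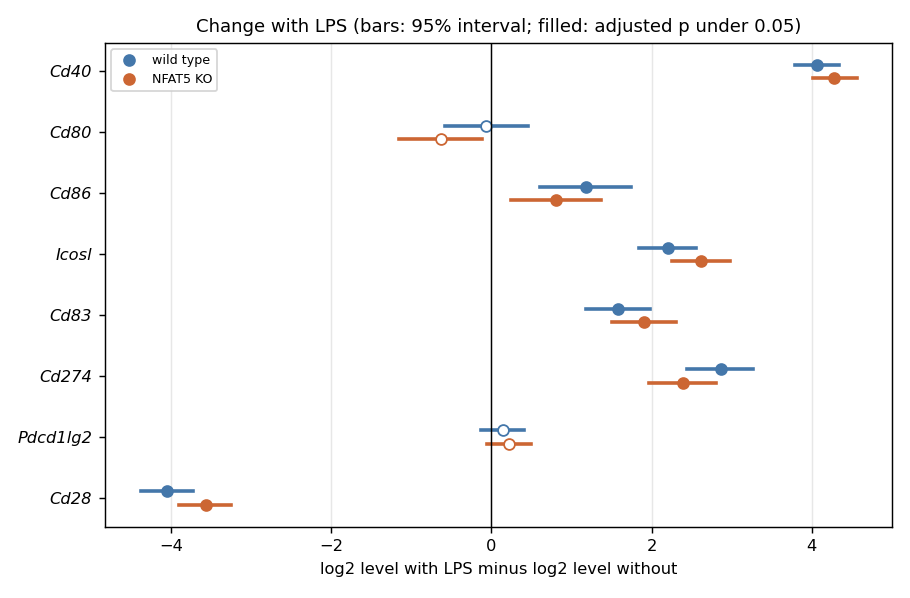
Change in log2 RMA level with LPS for each of the 8 transcripts in wild-type (blue) and NFAT5 KO (orange) cells. Lines are 95% confidence intervals from the limma fit, and filled points have an adjusted p under 0.05. Cd40 is farthest to the right and Cd28 farthest to the left in both genotypes, and Cd80 and Pdcd1lg2 are open in both.

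The comparison of genotypes without LPS asks whether NFAT5 sets the resting level of these molecules. None of the 8 was called, against 1% of all genes in limma (0.14% higher and 0.863% lower), and 4 of the 8 had an unadjusted p under 0.05, as did 7.83% of all genes. Cd40 was 1.38-fold lower in KO cells (-0.46 ± 0.13, adjusted p = 0.134), lower in 4 of 4 same-numbered pairs and the only one of the 8 whose groups did not overlap, compared with 4.33% of all genes (1.47% higher and 2.86% lower). The exact two-sided permutation test gave p = 0.0286 for it, the smallest that 4 against 4 arrays allow. With the array number as a replicate block over all 16 arrays, Cd40 was called lower (adjusted p = 0.048), but not with the block on the 8 arrays compared (adjusted p = 0.0511). The other members with an unadjusted p under 0.05 were Cd83 (-0.49 ± 0.19, adjusted p = 0.452, lower in 4 of 4 pairs), Icosl (-0.48 ± 0.172, adjusted p = 0.365, lower in 3 of 4) and Cd274 (0.42 ± 0.197, adjusted p = 0.635, higher in 3 of 4). The pair numbered 4 was the only one with Xist above Kdm5d in both arrays. Its KO array differed by -0.34 for Cd40, -0.27 for Cd83, -0.48 for Icosl and 0.50 for Cd274. With a term for sex the differences were -0.6, -0.13, -0.56 and 0.42 in the same order, none of them called. Among all arrays with Xist above Kdm5d they were -0.51, -0.03, -0.49 and 0.59, with array 4 the only unstimulated KO array. In this design none of these differences can be told apart from sex, and that of Cd83 was the smallest in both settings.

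With LPS, Cd28 alone of the 8 was called between genotypes. The level that remained was higher in KO cells by 0.73 ± 0.154, or 1.66-fold (limma adjusted p = 0.0114), in 4 of 4 pairs, and its groups did not overlap. Of all genes 3.05% were called (1.8% higher and 1.26% lower), and 7.73% did not overlap (4.15% higher and 3.59% lower). Both groups of Cd28 values lay under the lowest array median over all probe sets, 6.76, with signal over background not tested. The KO arrays lay between 6.61 and 6.69, while wild-type array 4 stood nearest to them and its pair differed by 0.28, against 0.77, 0.96 and 0.91 in the pairs numbered 1 to 3. On arrays numbered 1 to 3 the difference was 0.88 (adjusted p = 0.000962), and with a term for sex it was 0.88 (adjusted p = 0.0213). Neither value separates genotype from sex. On arrays numbered 1 to 3 both coincide fully, and the sex term rests on the KO arrays numbered 4. The call was lost without wild-type LPS array 2 (0.66, adjusted p = 0.0566) and among the 10 arrays with Xist above Kdm5d, which leave 1 KO array per treatment (0.77, adjusted p = 0.237). Of the cell type markers, 0 of 9 for T cells were called between genotypes with LPS, and the macrophage receptor gene Mertk was higher in KO cells (0.79 ± 0.16, adjusted p = 0.00891). Pdgfrb, a growth factor receptor gene and the only one of 6 stromal and endothelial markers called between genotypes, was lower in KO cells with LPS (-0.90 ± 0.148, adjusted p = 0.00169), after a rise with LPS of 14.7-fold in wild type and 8.92-fold in KO. The alternatives, the sex term among them, were not run for Mertk or Pdgfrb. The part of these markers in the Cd28 difference was not tested.

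The other 7 were not called with LPS. Cd86 differed by -0.69 ± 0.268 (1.62-fold lower in KO cells, adjusted p = 0.26, 95% confidence interval -1.26 to -0.13). It was lower in 3 of 4 pairs, by 1.41, 1.18 and 0.51, and the pair numbered 4 ran the other way (0.33). Without the arrays numbered 4 the difference was -1.04 (adjusted p = 0.0674), and with the sex term -0.42 (adjusted p = 0.556). For Cd40 the difference was -0.25 ± 0.13 (adjusted p = 0.544, lower in 4 of 4 pairs). Cd274, Icosl and Cd83 differed by -0.05 (95% confidence interval -0.46 to 0.37), -0.06 (-0.42 to 0.30) and -0.18 (-0.58 to 0.22). The sign of the Cd83 difference turned with the sex term (0.19, adjusted p = 0.695), and that of Cd274 without wild-type LPS array 2 (0.06) or KO LPS array 4 (0.01).

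Whether the LPS response itself depended on genotype was tested as the difference between both responses. None of the 8 was called, against 1.29% of all genes in limma (0.988% higher and 0.301% lower), and 1 of the 8, Cd28, had an unadjusted p under 0.05, near the share of all genes (10.3%). Its fall was smaller in KO cells by 0.48 ± 0.217 (adjusted p = 0.447, 95% confidence interval 0.02 to 0.94). For the others the difference ran from -0.57 ± 0.347 (Cd80, adjusted p = 0.664) to 0.42 ± 0.243 (Icosl, adjusted p = 0.624). Such differences are measured less precisely than a single response, with intervals that reach -1.30 for Cd80 and 0.93 for Icosl.

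**Figure D4:**
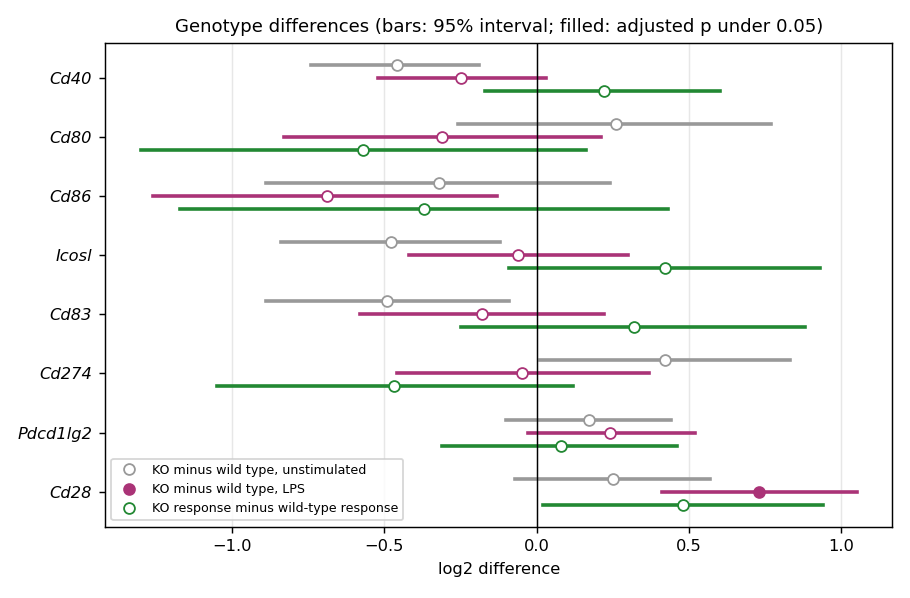
Log2 differences between NFAT5 KO and wild-type cells for each of the 8 transcripts, without LPS (grey), with LPS (purple) and as the difference between their LPS responses (green). Lines are 95% confidence intervals from the limma fit. The only filled point, with an adjusted p under 0.05, is Cd28 with LPS, at 0.73.

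Other genes of these pathways were followed as lists, described by counts beside the all-gene medians of 0.062 (wild type) and 0.01 (KO) for the change with LPS. Of 7 further B7 and CD28 family genes measured, Vsir, which encodes the inhibitory ligand VISTA, fell in both genotypes, by 1.07 in wild-type and 1.61 in KO cells. Pdcd1, which encodes PD-1, rose by 0.28 in wild-type cells (adjusted p = 0.044), and the other 5 were not called with LPS. The list medians were 0.16 and -0.08. With LPS, Vsir was lower in KO cells (-0.55 ± 0.144, adjusted p = 0.0445), a call that was lost in 16 of 28 alternatives, 11 of which leave out a single array (adjusted p up to 0.176). For Vsir the difference was -0.32 with the sex term (adjusted p = 0.329) and -0.21 among the 10 arrays with Xist above Kdm5d (adjusted p = 0.666).

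Among 14 costimulators of the TNF superfamily 4 rose in wild-type and 3 in KO cells, with list medians of 0.12 and -0.03. Tnfsf9, the ligand of 4-1BB, rose 11.5-fold and 11.6-fold, Tnfsf15 by 1.86 and 1.30 and the receptor gene Tnfrsf14 by 1.13 and 1.32. None of the 14 was called between genotypes, where the smallest adjusted p were 0.589 without and 0.245 with LPS. Of 15 SLAM, adhesion and nectin genes 5 rose and 1 fell in wild-type cells, and 6 rose and 1 fell in KO cells (medians 0.20 and 0.42). Icam1, an adhesion ligand of T cells, rose by 2.09 and 2.16, Slamf7 by 2.19 and 2.27 and Pvr, a ligand of TIGIT and CD226, by 2.23 and 1.86. With LPS, Pvr was lower in KO cells (-0.62 ± 0.13, adjusted p = 0.0106; 0.0531 without wild-type LPS array 2), and Cd84 was higher (1.0 ± 0.166, adjusted p = 0.0017).

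Of 18 other inhibitory receptors and ligands 4 rose and 5 fell in wild-type cells, and 5 rose and 4 fell in KO cells (medians 0.09 and 0.03). Cd200r1, an inhibitory receptor for CD200, fell by 2.41 and 2.07, and Siglece, which encodes a sialic acid receptor, rose by 2.07 and 3.01. Without LPS, Siglece was lower in KO cells (-1.37 ± 0.25, adjusted p = 0.0083) and so was Cd72 (-1.39 ± 0.168, adjusted p = 0.000122). The Siglece call was lost on the 8 arrays compared (adjusted p = 0.0744) and among arrays with Xist above Kdm5d (adjusted p = 0.2), and that of Cd72 was kept in all 28 alternatives. With LPS, Cd300a was higher in KO cells (1.37 ± 0.188, adjusted p = 0.000372).

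Signalling genes downstream of these receptors were measured too. Of 11 genes of CD40 signalling 9 rose and 2 fell in wild-type cells, and 8 rose and 2 fell in KO cells (medians 1.14 and 1.20). Traf1, an adaptor of TNF receptors, was the only one called between genotypes: it was lower in KO cells by -1.74 ± 0.151 without LPS (adjusted p = 2.41e-06) and by -0.98 ± 0.151 with it (adjusted p = 0.000946). Its rise with LPS was 3.14 in wild-type and 3.90 in KO cells. Of 15 regulators of PD-L1 and CD86, 5 rose and 5 fell in wild-type cells and 5 rose and 3 fell in KO cells (medians 0.05 and 0.19). Jak2, a kinase of the interferon-gamma receptor, rose by 2.88 and 2.52 and was lower in KO cells with LPS (-0.54 ± 0.111, adjusted p = 0.01; 0.0514 without wild-type LPS array 2).

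Of 12 genes of CD28 signalling, which other receptors also use, 1 rose and 4 fell in wild-type cells and 1 rose and 3 fell in KO cells (medians -0.07 and -0.04). Lcp2, an adaptor, rose by 1.69 and 1.47, and Nfatc2, a calcineurin-regulated transcription factor, fell by 2.27 and 1.41. With LPS 3 of the 12 were higher in KO cells, as were 1.8% of all genes. These 3 were Pik3r1 (0.58, adjusted p = 0.00389), Nfatc2 (0.59, adjusted p = 0.0267) and Vav1 (0.34, adjusted p = 0.0429). The call of Vav1 was lost in 16 of 28 alternatives and that of Nfatc2 in 8, of which 10 and 6 leave out a single array (adjusted p up to 0.192 and 0.0925). Among the 10 arrays with Xist above Kdm5d, the calls between genotypes with LPS were also lost for Cd84 (adjusted p = 0.125), Pvr (0.106), Traf1 (0.09), Jak2 (0.134) and Pik3r1 (0.247). The Vav1 difference was 0.25 with the sex term (adjusted p = 0.223). Itgax, listed as a dendritic-cell marker, rose with LPS by 2.56 in wild-type and 1.73 in KO cells and was lower in KO cells with LPS (-1.83 ± 0.427, adjusted p = 0.0229). For Itgax, too, the alternatives were not run. The mean of the 8 dendritic-cell markers ranged over arrays from 6.82 to 7.12 in wild-type and from 6.42 to 6.76 in KO cells with LPS. Itgax alone of the 8 was called between genotypes with LPS, the other 7 were not, and the median difference of the 8 was -0.03. Clec9a, which marks cross-presenting dendritic cells, had group means between 4.63 and 4.77. The part of dendritic-like cells in the differences of Cd86 and Cd83 was not tested.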

How the data were processed

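Per the labels, each of 16 samples was 1 biotin-labelled total RNA sample on an Affymetrix array. The authors deposited log2 expression values per probe set made with RMA, per the submitters' processing notes, with no version. RMA removes changes shared by all genes. Array medians lay between 6.76 and 6.86. Precision is limited by having 4 arrays per group. Of 34760 probe sets 21640 had 1 gene in the platform annotation, 1321 had several and 11799 were unnamed. Symbols of 21553 were looked up by gene identifier in RefSeq's GRCm38.p6 table, used for names and gene order. For a gene with several probe sets (954 of 19937) the brightest over all arrays was kept.

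All 16 arrays entered 1 limma 3.58.1 fit (R 4.3.3) with a mean per group and no block (12 residual degrees of freedom), and p-values were adjusted by Benjamini-Hochberg over all genes. Deviations from group means correlated between same-numbered KO and wild-type arrays by 0.16 to 0.44 without and 0.19 to 0.52 with LPS, above the minimum of 0.1, so these pairs gave the replicate block. Between treatments the correlations ran from 0.05 to 0.43 (wild type) and from -0.06 to 0.56 (KO). The lowest of each, for arrays numbered 1, was under the minimum, though the other numbers were above it. The number was therefore not taken to pair treatments. The main fit used no block, and the replicate block, also where it spans treatments, was run only as an alternative. Same-numbered differences between treatments are given as a description. Arrays of a group differed (SD of differences 0.172 to 0.381). The fit was tested on simulated data. Sex was coded from whether Xist exceeded Kdm5d. Members and lists were chosen with earlier results of these data known. Named genes were the 8 members, up to 4 genes with the smallest p per list and comparison (some left out for length), the 3 genes most like each member, and Nfat5. Ctla4, Icos, the Cd3 genes and the other markers printed by their range were named after their values were seen.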

Additional observations from a re-analysis of the deposited data

Results flagged for a closer look

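Cd28 in KO unstimulated array 4 read 10.5, apart from the other 3 KO arrays (10.15, 10.14 and 10.12). It was the only one of 32 sets of 4 arrays, 8 genes in 4 groups, with a value this far from the rest, and chance alone gives about 1 in 20 sets.

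For 4 genes of the pathway lists the response to LPS differed between genotypes in limma. Cd72, an inhibitory receptor, fell in wild-type cells from 12.7 ± 0.2 to 11.82 ± 0.134 (SD, n = 4) and went from 11.3 ± 0.281 to 11.87 ± 0.383 in KO cells, a difference in response of 1.44 (adjusted p = 0.00749, and 0.183 among the 10 arrays with Xist above Kdm5d). Cd300a, another inhibitory receptor, went from 10.69 to 7.90 and from 10.95 to 9.27, a difference of 1.12 (adjusted p = 0.046). For Nfatc2 the difference was 0.86 (adjusted p = 0.0431), with 10.22 to 7.95 in wild-type and 9.95 to 8.55 in KO cells, and for Ifngr1, a chain of the interferon-gamma receptor, it was 0.71 (adjusted p = 0.0499), with 11.11 to 9.96 and 10.84 to 10.40. The calls of Cd300a, Nfatc2 and Ifngr1 were lost in 17, 17 and 16 of 26 alternatives, among them 14, 14 and 13 of the 16 that leave out a single array (adjusted p up to 0.108, 0.0982 and 0.127).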

How the results depend on the processing

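Over 28 alternatives (26 for the difference in response), the 40 member comparisons gave 1094 values, of which 1066 kept direction and side of the threshold, 7 lost the call, 9 gained it and 12 turned sign, all of them without a call on either side. Cd80 with LPS in wild-type cells (-0.07) was 0.01 after quantile normalization, 0.02 with the mean of its probe sets, 0.28 on arrays numbered 1 to 3, and 0.01 and 0.2 without unstimulated or LPS wild-type array 4. With LPS, Cd274 in KO against wild type (-0.05) was 0.06 without wild-type LPS array 2 and 0.01 without KO LPS array 4, and Cd83 (-0.18) was 0.19 with the sex term and 0.09 among arrays with Xist above Kdm5d. The difference in response of Pdcd1lg2 (0.08) was -0.12 on arrays numbered 1 to 3, and 0 and -0.06 without wild-type or KO LPS array 4. Over all single arrays left out, these ran from -0.3 to 0.2 (Cd80), from -0.18 to 0.06 (Cd274) and from -0.06 to 0.16 (Pdcd1lg2). Pdcd1lg2 had no value under either filter on dim genes. The members called were 1 (Cd40, lower) in place of 0 for KO against wild type without LPS with the replicate block on all 16 arrays (0.0511 for Cd40 on the 8 compared), and 0 in place of 1 with LPS among arrays with Xist above Kdm5d, and from 0 to 1 on leaving out single arrays. In that set of 10 arrays Pdcd1lg2 rose with LPS in KO cells (0.77, adjusted p = 0.0489), from 1 KO array per treatment. On all 16 arrays the replicate block changed no other member's call, and on the 8 KO arrays Cd80 was called lower with LPS with it (adjusted p = 0.0146) and without it (0.027).

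Counts over all genes moved more. With the replicate block 327 genes were called without LPS (200 without it), 950 with LPS (609) and 451 for the difference in response (257). With only the 8 arrays compared the count without LPS was 91. With LPS, those 8 arrays fitted with the replicate block gave 1149. The sex term gave 359 without LPS. Arrays with Xist above Kdm5d gave 58 without and 89 with LPS, 4 for the difference in response and 1962 for LPS in KO cells (4919 in the full set), with fewer samples. Arrays numbered 1 to 3 gave 153 for the difference in response. Leaving out single arrays gave 116 to 209 without LPS (116 without unstimulated wild-type array 2 or KO array 1, 128 without unstimulated wild-type array 1), 308 to 659 with LPS (308 without wild-type LPS array 2, 394 without KO LPS array 1) and 133 to 271 for the difference in response (133, 136, 145, 148, 149 and 168 without wild-type LPS 2, wild type 2, KO LPS 3, KO LPS 1, KO 1 and KO LPS 2). Alternatives for the genes of the pathway lists were chosen after seeing the data. No detection values were used, so signal over background sets an unknown limit for dim genes such as Pdcd1lg2, and for Cd28 with LPS.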

Other observations

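Genes with the level most like each member's over the 16 arrays were listed by Pearson's correlation, as a description: the arrays form an LPS and an unstimulated set, so any gene with a strong LPS response correlates highly. Cd28 was most like Cxcr4, the receptor of CXCL12, Rnf144b and Rab3il1 (0.995 each). Cxcr4 went with LPS from 11.40 to 8.02 in wild-type cells and from 11.63 to 8.62 in KO cells. Rnf144b went from 11.32 to 7.16 and from 11.26 to 7.87. Cd40 was most like Klf7 (0.994), Nfkbia (0.994), which encodes an inhibitor of NF-kB, and Rras2 (0.993). Icosl was most like Ehd1 (0.996), Ikbke (0.995) and Nfkbie (0.993), another inhibitor of NF-kB, whose mean level was 9.05 and 11.11 (wild type) and 8.69 and 11.10 (KO). Cd83 was most like Mllt6 (0.982), Ebi3 (0.975), a cytokine subunit, and Vasp (0.974), and Cd274 like Gng12 (0.987), Clec4e (0.98) and Rcn1 (0.978). For Cd86 the highest values were 0.93 (Cdr2), 0.924 (Zfp821) and 0.921 (Ubtd2), for Cd80 0.894 (Mcm8), 0.825 (Zfp346) and 0.809 (Gas8), and for Pdcd1lg2 0.935 (Adcy5), 0.906 (Dcdc5) and 0.883 (Stk32a).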
